A study of Mus musculus with 6 samples.

Results

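The receptors described here are 10 genes of the nuclear receptor superfamily in mouse gastrocnemius muscle: the PPAR genes Ppara, Ppard and Pparg, the RXR genes Rxra, Rxrb and Rxrg, the LXR genes Nr1h3 (LXR-alpha) and Nr1h2 (LXR-beta), and the thyroid hormone receptor genes Thra and Thrb. They were chosen by symbol, and each matched 1 Ensembl ID among the 51911 genes of the deposited count table. The samples were 3 libraries from male mice transgenic for PGC-1alpha3, a truncated isoform of the coactivator PGC-1alpha, driven by the human skeletal actin (HSA) promoter, and 3 libraries from male wild-type mice. Age and strain are not given in the sources used here, nor is the number of animals behind a library, so p-values measure the spread between these libraries, which may be technical. The HSA promoter is active in skeletal muscle fibres, while the RNA came from the whole muscle with its other cell types. How many founder lines or pooled animals were used is not given in the sources used here.

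Nuclear receptors are transcription factors that bind DNA through paired copies of a short half-site and change activity when a small lipophilic ligand binds. PPARs (fatty acids and their derivatives), LXRs (oxysterols) and thyroid hormone receptors (triiodothyronine) all bind DNA as heterodimers with an RXR, so the RXR genes encode a partner shared by the other families. In muscle PPARs are known for control of fatty acid oxidation, LXRs for cholesterol efflux and lipid synthesis, and thyroid hormone receptors for contraction speed and metabolic rate. PGC-1alpha was first described as a coactivator of PPAR-gamma and the thyroid hormone receptor, and it docks on several receptors of these families.

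Total counts ran from 25532146 to 40846872 per library, and 16593 genes passed the filter on low counts, all 10 receptor genes among them. Levels are given as CPM, read counts scaled to library size with TMM factors, which set the bulk of genes equal between libraries. Ppargc1a, the parent gene of the transgene, lay between 2449 and 3238 CPM in transgenic libraries and between 51.1 and 53.5 CPM in wild-type ones, so each library matched its label. Scaling by library totals instead shifted the median of all tested genes by 0.40 on the log2 scale, from -0.016 to 0.38, and raised the log2 fold changes of the 53 receptors and list genes checked by 0.39 to 0.40. Small falls under TMM are thus smaller or gone by library totals, and small rises larger. Unless stated, values use TMM. Markers of skeletal muscle fibres summed to 82911 to 88423 CPM in the transgenic group against 173785 to 183670 CPM in the wild type, and 10 of 10 fell. Endothelial markers fell too, 8 of 8 (350 to 370 against 438 to 464 CPM), while of 12 macrophage markers 2 rose and 0 fell (116 to 128 against 81.4 to 133 CPM). A separate list of 8 slow fibre markers had 0 higher and 0 lower (median log2 fold change 0.86). Their sums in replicates 1 to 3 were 1572, 3047 and 1331 CPM in transgenic and 927, 2059 and 768 CPM in wild-type libraries. These ranges overlapped, with the highest sum in replicate 2 of each genotype. Over all tested genes 25.5% rose and 25.2% fell. By library totals, a check added after the data were seen, 6 of 10 fibre markers fell and 0 rose (95079 to 101470 against 152907 to 156281 CPM), while 0 of 8 endothelial markers passed and their sums overlapped (401 to 425 against 388 to 408 CPM). Macrophage markers again had 2 higher and 0 lower, with sums of 133 to 147 against 69.3 to 117 CPM. The slow fibre list had 1 higher and 0 lower in that scaling, with overlapping sums (1526 to 3497 against 676 to 1752 CPM). Over all tested genes 52.3% were called higher and 8.73% lower by library totals. None of these markers was at 0 over the libraries. Their part in the results below was not tested, and in whole muscle fewer cells of a type cannot be told apart from less RNA per cell.

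Of the 10 receptor genes, 8 passed an adjusted p of 0.05: Nr1h2, Rxrb and Nr1h3 rose, and Rxrg, Rxra, Thra, Ppard and Thrb fell, while Ppara and Pparg did not pass. Across all tested genes 50.7% passed, 25.5% as higher and 25.2% as lower. A change of at least 1.5-fold was reached by 4 receptor genes, against 24.0% of tested genes, and of at least 2-fold by 2, against 10.7%. The 8 genes that passed were also those whose CPM did not overlap between genotypes, as held for 59.6% of tested genes. Rxrg, Rxra and Nr1h2 had the largest changes: 5.33%, 14.8% and 9.73% of tested genes had a larger absolute log2 fold change. Scaled by library totals, 4 receptor genes were called higher and 3 lower, where 61.0% of tested genes were called, 52.3% as higher and 8.73% as lower. Of all genes, 65.8% did not overlap in CPM by library totals, 50.2% were called with the replicate block and 45.6% with DESeq2, 22.8% in each direction. The median of the 10 log2 fold changes was -0.20, against -0.016 over all tested genes.

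The genomic context of the 3 genes that changed most is shown first, as the 250 bases upstream of each RefSeq transcription start on build GRCm38.p6, because Rxra and Rxrg fell together and Nr1h2 rose. The core half-site of these receptors, AGGTCA, was searched on both strands and is in capitals. RefSeq gave windows for 9 of the 10 genes, Thra being the one with none, and 16 windows in all.
Rxrg, first start, chr1:167598112-167598361, plus strand: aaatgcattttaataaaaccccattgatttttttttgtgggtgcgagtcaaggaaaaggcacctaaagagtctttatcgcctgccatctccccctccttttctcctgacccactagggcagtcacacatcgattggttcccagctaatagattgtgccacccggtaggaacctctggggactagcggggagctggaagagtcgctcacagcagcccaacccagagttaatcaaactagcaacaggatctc
Rxrg, second start, chr1:167618015-167618264, plus strand: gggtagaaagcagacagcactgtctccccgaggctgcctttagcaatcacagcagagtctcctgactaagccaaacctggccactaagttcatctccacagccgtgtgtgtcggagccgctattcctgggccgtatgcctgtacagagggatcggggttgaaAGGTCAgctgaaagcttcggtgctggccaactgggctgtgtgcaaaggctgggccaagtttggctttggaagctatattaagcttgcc
Rxra, first start, chr2:27676951-27677200, plus strand: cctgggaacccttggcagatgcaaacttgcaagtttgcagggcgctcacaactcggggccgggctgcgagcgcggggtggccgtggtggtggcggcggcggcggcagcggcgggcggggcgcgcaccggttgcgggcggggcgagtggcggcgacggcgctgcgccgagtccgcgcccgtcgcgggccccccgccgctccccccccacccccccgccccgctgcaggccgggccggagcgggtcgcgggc
Rxra, second start, chr2:27709042-27709291, plus strand: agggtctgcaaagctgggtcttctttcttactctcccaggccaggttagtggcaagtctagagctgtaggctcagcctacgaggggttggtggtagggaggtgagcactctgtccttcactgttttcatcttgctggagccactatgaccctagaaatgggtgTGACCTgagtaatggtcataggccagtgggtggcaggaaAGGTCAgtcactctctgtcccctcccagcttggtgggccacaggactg
Nr1h2, only start, chr7:44553966-44554215, minus strand: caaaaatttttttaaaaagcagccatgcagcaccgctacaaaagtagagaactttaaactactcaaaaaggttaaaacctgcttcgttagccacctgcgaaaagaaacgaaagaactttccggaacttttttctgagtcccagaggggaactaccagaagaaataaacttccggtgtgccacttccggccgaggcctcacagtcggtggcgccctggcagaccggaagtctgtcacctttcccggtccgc
The second Rxrg window held 1 half-site, 88 bases upstream of the start, and the second Rxra window held 2, at 87 and 48 bases upstream. Neither first window nor the Nr1h2 window held one. Over all 16 windows 5 held it, the others being 2 of the 3 Pparg windows and 1 of the 2 Thrb windows, while the windows of Ppard, which fell, and of Rxrb and Nr1h3, which rose, held none. The half-site occurs in 14.0% of 32851 mouse promoter windows of the same length. Its direct repeats with 1 base (DR1) or 4 bases (DR4) between the copies, which contain it, were found in none of the 16 windows and in 0.0335% and 0.0152% of all windows. The first Rxra window was 81.2% G and C with 3 GC boxes (GGGCGG, found in 32.7% of windows), whereas the first Rxrg window was 49.2% and the Nr1h2 window 48.4% G and C with none. These matches describe the letters of the windows, and gene-level counts do not tell which start was used.

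The RXR genes did not move as 1 group. Rxrg (ENSMUSG00000015843, chromosome 1, 167598384 to 167639623, plus strand, GRCm38), which encodes the RXR form enriched in skeletal muscle and heart, was at 30.1, 27.6 and 29.5 CPM in the transgenic libraries and 83.2, 77.2 and 73.4 CPM in the wild-type libraries. Every transgenic library lay far below every wild-type library. The transgenic mean was 29.1 ± 1.28 CPM and the wild-type mean 77.9 ± 4.94 CPM (SD, n = 3 each). Rxrg fell 2.68-fold, at -1.42 on the log2 scale (SE 0.07, adjusted p = 6.40e-08). Rxra (ENSMUSG00000015846, chromosome 2, 27676440 to 27762957, plus strand), the widely expressed form, was at 131, 131 and 124 CPM against 239, 241 and 229 CPM. Its genotypes also stood apart with little spread within each, at 128 ± 4.06 and 236 ± 6.34 CPM (SD, n = 3). The fall was 1.84-fold, or -0.88 on the log2 scale (SE 0.05, adjusted p = 2.84e-07). Rxrb (ENSMUSG00000039656, chromosome 17, 34031812 to 34038399, plus strand), the third and also widely expressed form, went the other way.

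Rxrb reached 58.3, 57.1 and 61.4 CPM in transgenic libraries against 44.6, 47.3 and 46.3 CPM in wild-type libraries. The lowest transgenic value was above the highest wild-type value, and the log2 fold change was 0.35 (SE 0.06, adjusted p = 3.57e-04), or 1.28-fold higher. Under library totals the RXR genes kept these directions and calls, at -1.03 for Rxrg, -0.48 for Rxra and 0.75 for Rxrb.

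Ratios between RXR genes of 1 library do not depend on the scaling between libraries. Per kilobase of exon, Rxra exceeded Rxrb by 3.90, 3.70 and 3.60 times in wild-type libraries and by 1.63, 1.66 and 1.47 times in transgenic libraries. The log2 ratio thus differed by -1.23 between genotypes, against SDs of 0.10 and 0.06 (n = 3; exact two-sided permutation p = 0.1, the smallest that 3 against 3 allows). For Rxrg over Rxrb the difference was larger, at -1.78 on the log2 scale: wild-type ratios of 3.23, 2.82 and 2.74 became 0.893, 0.837 and 0.831 in transgenic libraries. Rxrg was also lower relative to Rxra, from ratios of 0.828, 0.763 and 0.762 to 0.547, 0.503 and 0.567, a log2 difference of -0.54. Of the 7 ratios computed within families, 6 did not overlap between genotypes, and all 6 had this p (adjusted over the 7, p = 0.117 by the same exact test). Among single genes 59.6% of those tested did not overlap in CPM, and the share among ratios of other gene pairs was not computed.

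As a share of all RXR counts per kilobase, Rxrb went from 13.1% ± 0.685 to 29.1% ± 1.09 (SD, n = 3), and Rxrg from 38.2% ± 1.32 to 24.8% ± 0.782. Rxra stayed the main form, at 48.7% ± 0.657 in wild-type and 46.1% ± 1.54 in transgenic libraries. The summed RXR level was 91.2, 89.6 and 85.5 CPM per kilobase in wild-type libraries and 51.7, 50.3 and 50.9 in transgenic libraries. It was lower in each transgenic library under library totals as well (57.7 to 59.3 against 75.3 to 80.7 CPM per kilobase).

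**Figure D1:**
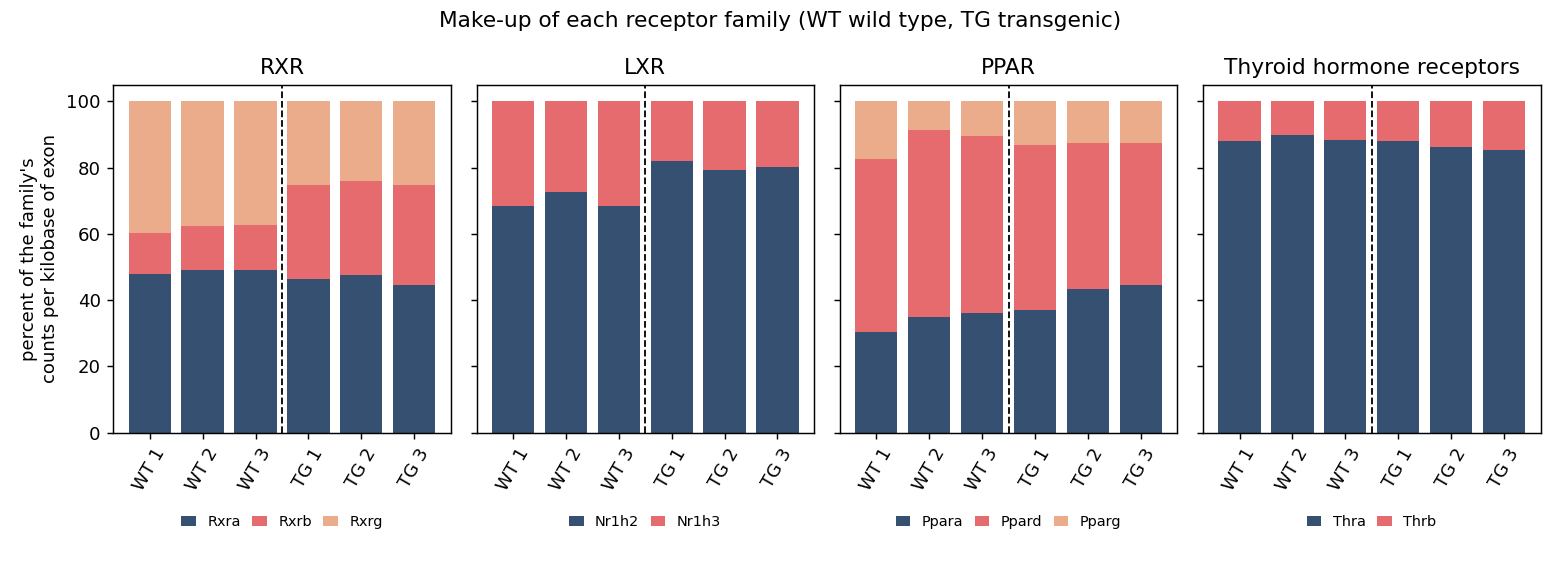
Stacked bars give the percent of each receptor family's counts per kilobase of exon that came from each gene, for wild-type (WT) and transgenic (TG) replicates 1 to 3, with a dashed line between genotypes. The Rxrb part of the RXR bars is 12.3% to 13.6% in wild-type and 28.4% to 30.3% in transgenic libraries, and the Nr1h2 part of the LXR bars is 68.3% to 72.6% against 79.2% to 81.9%.

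LXRs are sterol sensors: LXR-alpha is abundant in liver, fat and macrophages, and LXR-beta is found in most tissues. Nr1h2 (ENSMUSG00000060601, chromosome 7, 44549616 to 44553951, minus strand) was at 105, 99.3 and 106 CPM in transgenic libraries and 44.9, 52.3 and 49.1 CPM in wild-type libraries. The genotypes were separated by a wide gap: 103 ± 3.38 against 48.8 ± 3.70 CPM (SD, n = 3). It was the receptor gene with the largest rise, 1.08 on the log2 scale (SE 0.07, adjusted p = 3.32e-07), or 2.11-fold, and at 1.48 with library totals alone. Nr1h3 (ENSMUSG00000002108, chromosome 2, 91184061 to 91202834, minus strand) was at 17.4, 19.5 and 19.6 CPM against 15.6, 14.8 and 16.9 CPM. These ranges nearly touch, and the log2 fold change was 0.26 (SE 0.08, adjusted p = 0.0236). The Nr1h3 call ended without transgenic replicate 2 or 3 or wild-type replicate 1 or 2 (adjusted p = 0.0568 to 0.0826) and with DESeq2 (adjusted p = 0.0512). Nr1h3 shares 34 exonic bases with Gm13783, which had at most 0.133 CPM in a library.

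Within a library, Nr1h2 exceeded Nr1h3 per kilobase by 2.15, 2.65 and 2.18 times in wild-type and by 4.52, 3.81 and 4.05 times in transgenic libraries. The log2 ratio differed by 0.83, against SDs of 0.17 and 0.12, with no overlap. The summed LXR level went from 19.6, 21.5 and 21.4 to 38.1, 37.4 and 39.3 CPM per kilobase. In the transgenic libraries Nr1h2 ranked first of the 10 genes per kilobase, at 30.8 ± 1.01 CPM per kilobase, above Rxra at 23.5 ± 0.743. In wild-type muscle its rank was 4.

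Thyroid hormone receptor alpha is the main form in skeletal muscle, and the beta form is best known from liver and pituitary. Thra (ENSMUSG00000058756, chromosome 11, 98740638 to 98769006, plus strand) was at 97.1, 97.8 and 85.8 CPM in transgenic libraries and 139, 160 and 139 CPM in wild-type libraries. All transgenic values lay below all wild-type values, and the log2 fold change was -0.64 (SE 0.07, adjusted p = 3.32e-05), or 1.56-fold lower. Thrb (ENSMUSG00000021779, chromosome 14, 17660261 to 18038090, plus strand) was at 21.1, 24.9 and 23.5 CPM against 30.1, 28.9 and 29.5 CPM. It too fell without overlap, by a smaller log2 fold change of -0.35 (SE 0.07, adjusted p = 0.00243). Thra kept its call with library totals alone (-0.25, adjusted p = 0.00795), and Thrb turned to 0.05 (adjusted p = 0.601), below the median of all genes in that scaling (0.38).

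Thra and Nr1d1, which encodes the clock repressor REV-ERB-alpha, lie on opposite strands and share 263 exonic bases, 5.70% of the exonic bases of Thra. The shared end belongs to the alpha2 splice form, which does not bind hormone. Fragments were counted without strand and for every gene they touched, so reads from the shared part count for both genes. Nr1d1 itself was at 201, 184 and 132 CPM against 266, 301 and 254 CPM, at -0.67 on the log2 scale (SE 0.16, adjusted p = 0.0160). The Nr1d1 call ended without wild-type replicate 1 (adjusted p = 0.0547) or 2 (0.0582) and by library totals (-0.27, adjusted p = 0.194). The part of the shared bases in the Thra value was not tested. Per kilobase, Thra exceeded Thrb by 7.42, 8.88 and 7.56 times in wild-type and by 7.39, 6.29 and 5.84 times in transgenic libraries, a log2 difference of -0.29 with the closest values nearly equal.

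PPAR-alpha and PPAR-delta are the PPARs of oxidative tissues, and PPAR-gamma is the adipocyte form. Ppard (ENSMUSG00000002250, chromosome 17, 28232700 to 28301474, plus strand) was at 28.1, 32.6 and 30.8 CPM in transgenic libraries and 38.7, 40.7 and 40.5 CPM in wild-type libraries. The genotypes did not overlap, and Ppard fell by 0.39 on the log2 scale (SE 0.07, adjusted p = 6.80e-04). Under library totals it was at 0.0071 (adjusted p = 0.934), below the median of all genes but level between genotypes. Ppara (ENSMUSG00000022383, chromosome 15, 85734983 to 85802819, plus strand) was at 10.7, 16.3 and 16.3 CPM against 11.4, 12.8 and 14.0 CPM. Transgenic replicate 1 lay below every wild-type library and the other two transgenic libraries above them, and the log2 difference was 0.18 (SE 0.16, adjusted p = 0.399). Without transgenic replicate 1 the value was 0.38 and passed (adjusted p = 0.0115), as it did with library totals alone (0.58, adjusted p = 0.0154).

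Pparg (ENSMUSG00000000440, chromosome 6, 115360951 to 115490399, plus strand) was the least abundant of the 10, at 2.93, 3.63 and 3.54 CPM in transgenic libraries and 5.07, 2.48 and 3.07 CPM in wild-type libraries. The wild-type values lay on both sides of the transgenic ones, and the log2 difference was -0.05 (SE 0.25, adjusted p = 0.872). Wild-type replicate 1, the highest, also held the most RNA of the adipocyte genes Adipoq and Plin1. The adipokine gene Adipoq was at 23.2 CPM there and at 1.80 to 7.33 CPM in the other libraries, and the lipid droplet gene Plin1 at 21.3 against 1.17 to 7.23 CPM. Among those other libraries, both genes were lowest in transgenic replicate 2, with Pparg at 3.63 CPM. They were highest in transgenic replicate 1, with Pparg at 2.93 CPM. The part of adipocyte RNA in the Pparg values was not tested. The 12 adipocyte markers, of which 3 fell (0 by library totals), 0 rose and 0 were at 0 over the libraries, summed to 1678 to 2003 CPM in the transgenic group against 2025 to 2309 CPM in the wild type. Without Car3, which muscle fibres also express, they summed to 177 to 222 and 225 to 434 CPM. Car3 was left out after its values were seen. Of these sums, Fabp4 alone was at 124 to 138 against 170 to 213 CPM. By library totals the sums overlapped, both without Car3 (203 to 255 against 198 to 384 CPM) and with it (1924 to 2299 against 1782 to 2044 CPM). Without wild-type replicate 1 the Pparg value was 0.29 (adjusted p = 0.235), and without wild-type replicate 2 it was -0.28.

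Within the PPAR family the ratio of Ppara to Ppard per kilobase was 0.580, 0.618 and 0.680 in wild-type and 0.745, 0.980 and 1.04 in transgenic libraries, with no overlap. The log2 difference of 0.54 stood against SDs of 0.12 and 0.25. Ppara went as a share of PPAR counts per kilobase from 33.8% ± 3.12 to 41.6% ± 3.98, and Ppard from 54.0% ± 2.14 to 45.6% ± 3.62 (SD, n = 3; exact permutation p = 0.1 for each). The summed PPAR level overlapped between genotypes, at 7.52 to 9.81 CPM per kilobase in the transgenic group against 9.59 to 10.1 in the wild type.

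**Figure D2:**
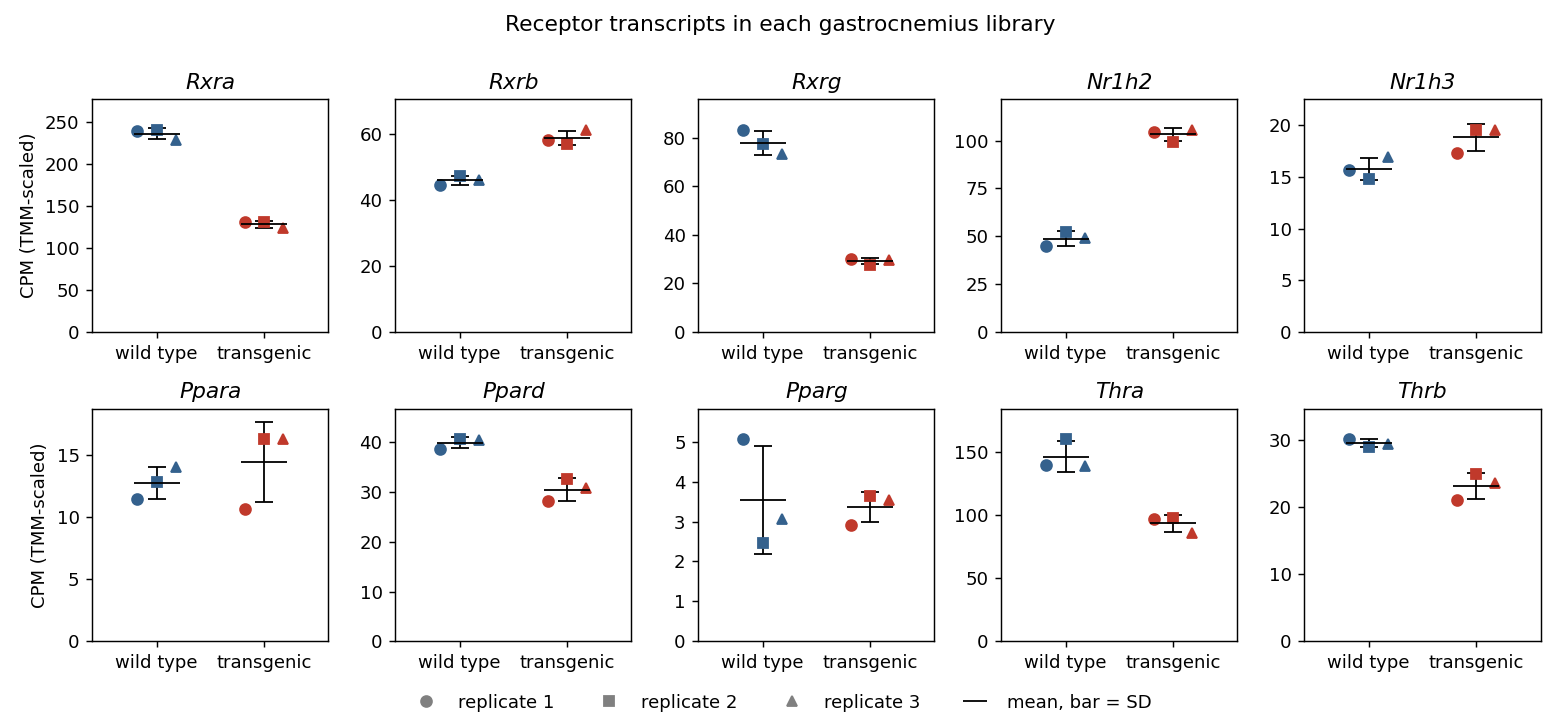
Each panel plots 1 receptor gene, with CPM on a vertical axis from 0, 3 wild-type libraries in blue and 3 transgenic libraries in red, symbols for the replicate, and a black mean with its SD. Rxra and Rxrg show the widest gaps downward (Rxrg 27.6 to 30.1 against 73.4 to 83.2 CPM), Nr1h2 the widest upward, and Ppara and Pparg overlap.

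Compared per kilobase of exon, the order of levels in wild-type muscle was Rxra (43.3 ± 1.16 CPM per kilobase), Rxrg (33.9 ± 2.15), Thra (31.7 ± 2.64), Nr1h2 (14.5 ± 1.10), Rxrb (11.6 ± 0.347), Nr1h3 (6.27 ± 0.423), Ppard (5.32 ± 0.146), Thrb (3.98 ± 0.0795), Ppara (3.33 ± 0.339) and Pparg (1.20 ± 0.460; SD, n = 3). Of neighbours in this order, Rxrg and Thra overlapped between libraries and the others did not. In transgenic muscle Nr1h2 had rank 1 and Rxrg rank 5, at 12.7 ± 0.559 CPM per kilobase, just below Rxrb at 14.8 ± 0.559. Ppard, Ppara and Thrb followed Nr1h3 there with overlapping neighbours, and Pparg stayed last at 1.14 ± 0.130. Exon lengths came from the union of annotated exons, so a gene whose long isoforms are not used in muscle has its level understated.

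**Figure D3:**
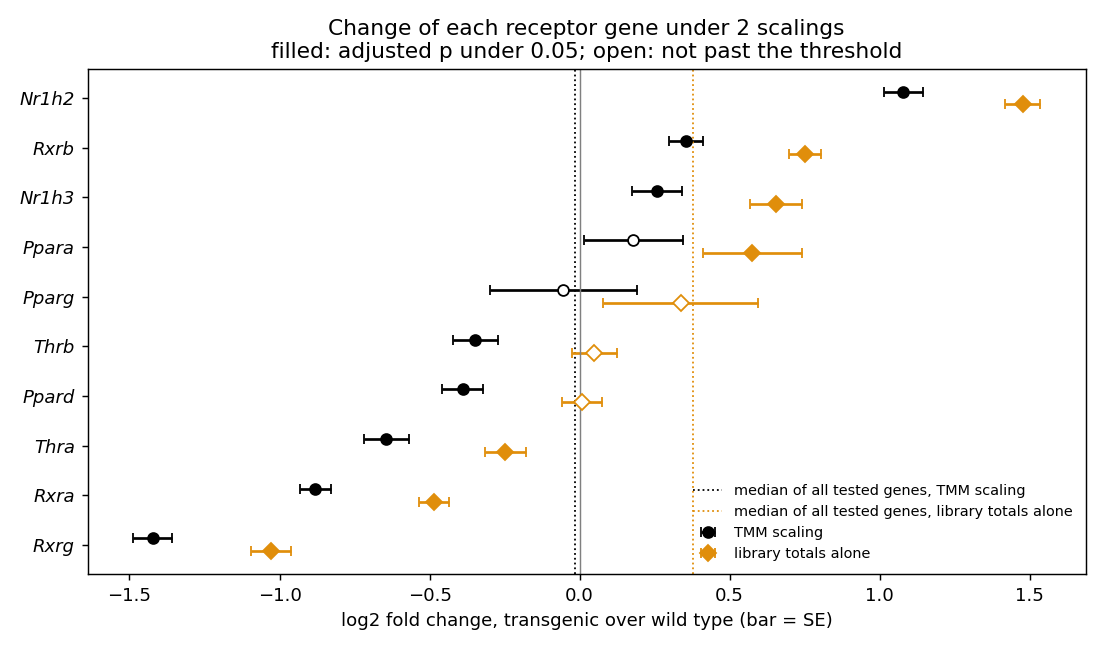
Points give the log2 fold change of each receptor gene, transgenic over wild type, with its SE, under TMM scaling (black) and library totals alone (orange). Filled points passed an adjusted p of 0.05, and dotted lines mark the median of all tested genes (-0.016 and 0.38). The order of the genes is the same in both, while Ppard and Thrb lie close to 0 with library totals alone.

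In the authors' deposited table, which holds 3614 genes past a log2 fold change of 0.585 in size, 4 of the 10 receptors were listed. The authors' deposited table gives log2 fold changes of -1.42 for Rxrg, -0.88 for Rxra, 1.05 for Nr1h2 and -0.60 for Thra, the same signs as above.

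Among 39 other nuclear receptors, 25 passed the filter on low counts, and of these 8 fell and 3 rose (median log2 fold change -0.22). Across all tested genes 25.2% fell and 25.5% rose. The smallest p-values belonged to Esrra, an estrogen-related receptor that PGC-1alpha coactivates (-0.69, SE 0.08), Rora, an activator of the clock gene Bmal1 (-0.51, SE 0.08), Nr1d2, which encodes REV-ERB-beta (-0.41, SE 0.06), and Esr1, estrogen receptor alpha (-0.81, SE 0.14). The other estrogen-related receptor genes rose, Esrrg by 0.37 (SE 0.08) and Esrrb by 0.50 (SE 0.15). Esrrg and Esrrb were picked with their values in view. The number that rose was 5 without wild-type replicate 2, and 3 with all libraries. Scaled by library totals, 9 of the 25 were called higher and 3 lower, against 52.3% and 8.73% of all tested genes. Rora (-0.12) and Nr1d2 (-0.02) no longer passed in that scaling, while Esrra was at -0.29 and Esr1 at -0.41.

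The retinoic acid receptors, which also pair with RXR, did not pass: Rara was at 20.8 to 22.3 CPM in the transgenic group against 14.6 to 20.2 CPM in the wild type (0.27, SE 0.11, adjusted p = 0.0502) and Rarb at 9.54 to 11.7 against 12.4 to 14.3 CPM (-0.27, SE 0.10, adjusted p = 0.0505). The vitamin D receptor gene Vdr, another RXR partner, was too low to test, at most 0.366 CPM. Of 18 genes of retinoid uptake and metabolism, which supply the ligands of RXR and its retinoic acid partners, 11 were tested. Retsat, a retinol saturase, rose (0.27, SE 0.07) and Rdh10, the retinol dehydrogenase that starts retinoic acid synthesis, fell (-0.54, SE 0.14). The other 9 did not pass, while 50.7% of all tested genes passed. Without wild-type replicate 1 the number that fell was 2. By library totals Rdh10 was at -0.15 and no longer passed.

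LXR target genes include those of cholesterol efflux and fatty acid synthesis. Of 20 listed targets 17 were tested, and 9 fell and 1 rose (median -0.38). Over all tested genes 25.2% fell and 25.5% rose (median -0.016). Smpdl3a, a phosphodiesterase gene, was at 29.3, 33.7 and 28.7 CPM in transgenic and 82.5, 73.5 and 71.2 CPM in wild-type libraries (-1.31, SE 0.08, adjusted p = 3.39e-07). Srebf1, the lipogenic transcription factor gene, was at 88.1, 70.4 and 63.7 CPM against 150, 157 and 142 CPM (-1.02, SE 0.11, adjusted p = 1.05e-04). Mylip, which encodes the ubiquitin ligase of the LDL receptor, fell by 0.42 (SE 0.08) and Pltp, the phospholipid transfer protein gene, by 0.42 (SE 0.09). The cholesterol efflux pump gene Abca1, named after its value was seen, fell by 0.52 (SE 0.11). Acaca, the acetyl-CoA carboxylase gene and the 1 that rose (0.27, SE 0.09, adjusted p = 0.0324), lost its call whenever transgenic replicate 1 or 2 or any wild-type replicate was left out (adjusted p = 0.0676 to 0.0792). By library totals 2 of the 17, Smpdl3a and Srebf1, were called lower and 4 higher, against 8.73% and 52.3% of all tested genes. Smpdl3a (-0.91) and Srebf1 (-0.62) thus kept their calls, while Mylip (-0.03), Pltp (-0.02) and Abca1 (-0.12) no longer passed.

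PPAR target genes serve fatty acid uptake, storage and oxidation. Of 34 listed, 33 were tested, and 8 rose and 6 fell with a median of 0.0005, where 25.5% of all tested genes rose and 25.2% fell. Cpt2, the inner mitochondrial carnitine palmitoyltransferase, rose by 0.42 (SE 0.05). In the other direction Cpt1b, its partner on the outer membrane in muscle, fell by 0.65 (SE 0.07) and the lipid droplet coat gene Plin2 by 0.54 (SE 0.07). Pdk4, a classical PPAR target that blocks glucose oxidation, varied widely, at 1052, 463 and 1260 CPM in transgenic and 726, 359 and 648 CPM in wild-type libraries (0.68, SE 0.51, adjusted p = 0.334). Its values overlapped between genotypes. Ucp3, another fatty-acid-responsive gene, at 137 to 219 against 77.5 to 130 CPM without overlap, did not pass (0.70, SE 0.28, adjusted p = 0.0995), but did with DESeq2 (adjusted p = 0.0388) and by library totals (1.09, adjusted p = 0.0293). Both were picked with their values in view. Without wild-type replicate 3 the number of targets that rose was 5. By library totals 22 of the 33 were called higher and 1 lower, where 52.3% of all tested genes were called higher and 8.73% lower. The list median in that scaling was 0.40, against 0.38 over all tested genes. Plin2 did not pass in that scaling (-0.14, adjusted p = 0.112), and Cpt1b was at -0.25.

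Fatty acid carriers, activating enzymes and lipases, which handle PPAR ligands, numbered 12, of which 4 rose and 4 fell (median -0.11). The shares over all tested genes were 25.5% higher and 25.2% lower. Dbi, the acyl-CoA binding protein gene (0.53, SE 0.07), and Acbd5 (0.39, SE 0.07) rose. Slc27a1, a fatty acid transporter gene (-0.60, SE 0.08), and Fabp4, the adipocyte and endothelial fatty acid binding protein gene (-0.50, SE 0.08), fell. Fabp3, the muscle fatty acid binding protein gene, named after its value was seen, rose, from a wild-type range of 152 to 205 CPM to a transgenic range of 229 to 300.2 CPM (0.66, SE 0.15). The number that fell was 2 without transgenic replicate 2. Scaled by library totals, 7 were called higher and 1 lower, against 52.3% and 8.73% of all tested genes. Slc27a1 was at -0.20 in that scaling, and Fabp4 (-0.11) was not past the threshold.

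Thyroid hormone acts in muscle on calcium pumps, glucose uptake and mitochondrial shuttles. Of 20 listed 19 were tested, and 10 fell and 1 rose (median -0.62), where 25.2% of all tested genes fell and 25.5% rose. The list was not split by the direction in which the hormone acts, so its median is not a measure of hormone response. Gpd2, the mitochondrial glycerol-3-phosphate dehydrogenase and a textbook thyroid hormone target, was at 92.4, 90.5 and 87.4 CPM in transgenic and 291, 276 and 260 CPM in wild-type libraries (-1.62, SE 0.06, adjusted p = 2.26e-08). Slc2a4, the GLUT4 glucose transporter gene, fell by 1.36 (SE 0.08), the potassium channel gene Kcnj12 by 1.10 (SE 0.06) and Atp2a1, the fast-fibre calcium pump SERCA1, by 0.89 (SE 0.06). Several of these are fast-fibre genes as well, and all 10 muscle fibre markers above also fell under TMM (6 by library totals). Of the 8 slow fibre markers 0 passed under TMM, and the part of fibre type in these values was not tested. Hr, Klf9 and Me1, known as targets from other tissues, were named after their values were seen. Hr, a thyroid hormone receptor corepressor, fell by 0.95 (SE 0.14), Klf9 by 0.56 (SE 0.06) and Me1, the malic enzyme gene, by 1.25 (SE 0.11). Of the 8 tested genes that did not pass, Atp2a2, another calcium pump gene (1.16, SE 0.44, adjusted p = 0.0946), and Ucp3 (0.70) were higher without overlap. Myh7 (0.89, SE 0.83) and Bcl3 (-0.62, SE 0.29), also among them, overlapped between genotypes. By library totals Klf9 was at -0.16 (adjusted p = 0.0337), Hr at -0.56, Atp2a1 at -0.49 and Kcnj12 at -0.71, and all 4 still passed.

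The 1 gene of this list that rose was Myh1, the IIX myosin heavy chain (1.07, SE 0.29, adjusted p = 0.0349). Its call ended without transgenic replicate 1 or 3 or wild-type replicate 1 or 2 (adjusted p = 0.0785 to 0.112). By library totals 9 genes of the list were called lower and 5 higher, against 8.73% and 52.3% of all tested genes.

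Thyroid hormone enters cells through transporters and is activated or inactivated by deiodinases. Of 12 genes of thyroid hormone transport, deiodination and binding 9 were tested, and 6 fell and 1 rose (median -0.47). Across all tested genes 25.2% fell and 25.5% rose. Slc16a10, the transporter MCT10, was at 45.9, 36.9 and 38.8 CPM in transgenic and 92.0, 96.9 and 79.5 CPM in wild-type libraries (-1.14, SE 0.10, adjusted p = 9.29e-06). The amino acid and hormone transporter gene Slc7a8 fell by 1.38 (SE 0.14), and Crym, which encodes a cytosolic binding protein of the hormone, fell by 1.78 (SE 0.23) from a low wild-type level of 4.46 to 6.91 CPM. Secisbp2, needed to make selenoproteins such as the deiodinases, rose by 0.64 (SE 0.07). The activating deiodinase gene Dio2 was at 3.32 to 4.18 CPM against 2.74 to 3.25 CPM and did not pass (0.29, SE 0.16, adjusted p = 0.147). By library totals 3 were called lower (Slc16a10 at -0.75, Slc7a8 at -0.98 and Crym at -1.38) and 3 higher, against 8.73% and 52.3% of all tested genes.

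**Figure D4:**
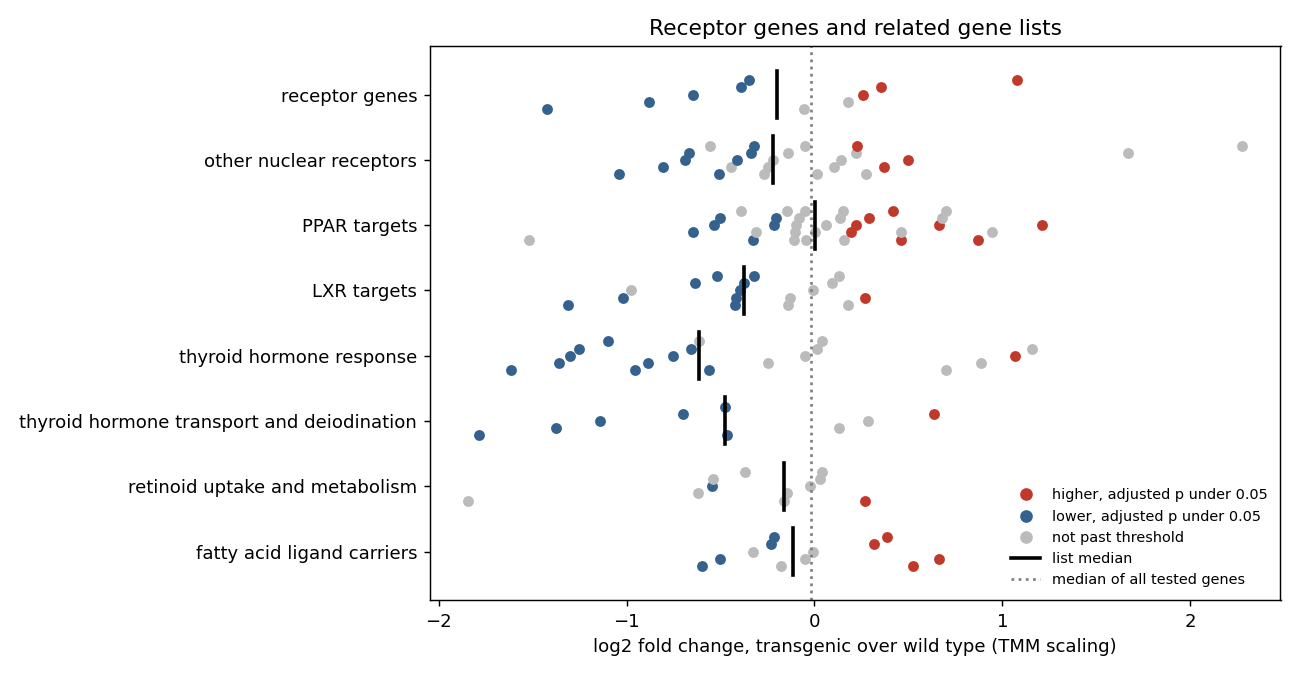
Each point is the log2 fold change of 1 tested gene under TMM scaling, in red where higher and blue where lower at an adjusted p of 0.05 and grey otherwise, by list. Black bars are list medians and the dotted line is the median of all tested genes (-0.016). The thyroid hormone lists lie mostly to the left (medians -0.62 and -0.47), and PPAR targets are spread on both sides (median 0.0005).

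For each receptor gene, the tested gene whose log2 CPM had the highest Pearson correlation with it over the 6 libraries was recorded, as a description of patterns set largely by genotype. These were Stub1 for Nr1h2 (r = 0.99998), Puf60 for Rxrb (r = 0.9998), Acyp2 for Rxra (r = 0.9998), Ndfip2 for Rxrg (r = 0.9995), Epdr1 for Thra (r = 0.9990), Ext2 for Ppard (r = 0.9988), Uhmk1 for Thrb (r = 0.998), Tm6sf2 for Nr1h3 (r = 0.994), Slc1a4 for Pparg (r = 0.991) and the antisense gene Gm45631 for Ppara (r = 0.985). An r above 0.95 was reached by 1889 of 16526 genes for Rxrg and by 8 for Pparg and 11 for Ppara, whose values did not separate the genotypes.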

How the data were processed

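Gastrocnemius was snap frozen and powdered before extraction with Trizol, per the labels' protocols. The submitters' processing notes name STAR 2.5.0a, featureCounts 2.0.0, DESeq2 and build GRCm38.p6. Per the file headers, the deposited raw counts are of fragments, without strand, and a fragment over several genes counts for each. The authors' deposited table gives log2 fold changes and p-values.

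Gene names, positions and exon lengths came from GENCODE vM21 (GRCm38), which matched 51718 of 51911 IDs. Genes were filtered with filterByExpr, scaled with TMM and tested with edgeR 4.0.16 in R 4.3.3 (robust quasi-likelihood, genotype as the sole term, Benjamini-Hochberg adjustment over all tested genes, threshold 0.05), the test behind every adjusted p unless another is named. The SE is the absolute log2 fold change over the square root of F. Ratios used counts plus 0.5. The fit was tested on simulated data. Alternatives were library totals, upper-quartile factors, DESeq2 1.42.0, voom in limma 3.58.1, no filter, no robust estimation, a replicate block and leaving out each library. A count of 3 equals 0.0804 to 0.134 CPM. No 2 libraries of a genotype agreed within counting noise, with chi-square values of 10.8 to 26.6 for each degree of freedom.

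The receptors, lists and tests were chosen with earlier results of these data known. Named are the 10 receptors, Ppargc1a, genes sharing their exons, the gene most like each, and up to 4 genes past the threshold per list by smallest p. Other named genes were picked with their values in view. Some genes of the lists are counted in them but not reported here by name.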

Additional observations from a re-analysis of the deposited data

How the results depend on the processing

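Rxrg, Rxra, Rxrb, Nr1h2 and Thra kept direction and call under every alternative run, and the 7 ratios within families kept theirs in direction. Without the receptors that share exonic bases, 2 were called higher and 4 lower. Causes of the changes below were not tested.

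Under library totals the log2 fold change was 0.58 for Ppara, 0.0071 for Ppard, 0.34 for Pparg and 0.049 for Thrb, and 3 receptors were called lower. Of all tested genes 52.3% were called higher and 8.73% lower under library totals, with a median of 0.38. In that scaling other nuclear receptors had 9 higher, 3 lower and a median of 0.17, PPAR targets 22, 1 and 0.40, LXR targets 4, 2 and 0.019, and the fatty acid carriers 7, 1 and 0.28. Thyroid hormone response had 5 higher and a median of -0.22, hormone transport 3 higher, 3 lower and a median of -0.076, and the retinoid list 3, 0 and 0.24. With no filter on low counts, other nuclear receptors had 7 higher and a median of -0.0096, and thyroid hormone response 0 higher. Of 34575 genes tested in that setting, 4742 were called higher and 3950 lower, with a median of 0.11. Medians there were 0.072 for PPAR targets, -0.31 for LXR targets and -0.21 for hormone transport.

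DESeq2 gave Nr1h3 0.26, short of the threshold, with 0 LXR targets and 3 thyroid hormone response genes higher. With voom Pparg was 0.047, the PPAR target median -0.017, and 3 thyroid hormone response genes rose. Of all 16593 tested genes voom called 4197 higher and 4179 lower, with a median of -0.020. Without robust estimation 5 other nuclear receptors and 3 thyroid hormone response genes rose and 2 retinoid genes fell. Of all 16593 tested genes 4226 rose and 4181 fell in that setting.

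Same-numbered libraries did not deviate together over all tested genes (correlations 0.101, -0.0884 and -0.210). With 3 libraries per genotype this cannot exclude a pairing by number. Slow fibre marker sums were highest in replicate 2 of both genotypes. With the replicate block 8331 genes were called against 8419, the PPAR target median was -0.020, and 4 thyroid hormone response genes rose. Esrrb missed the threshold there (adjusted p = 0.0520), and Pdk4 (0.62, adjusted p = 0.00177) and Ucp3 (adjusted p = 0.00493) passed it.

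Leaving out each library gave log2 fold changes of 0.093 to 0.38 for Ppara, -0.28 to 0.29 for Pparg and 0.21 to 0.33 for Nr1h3. The Pparg share of PPAR counts, transgenic minus wild type, ran from -1.12 to 3.22 percentage points. Higher calls ran from 2 to 5 for other nuclear receptors, 5 to 8 for PPAR targets, and 0 to 1 for LXR targets and for thyroid hormone response. Lower calls ran from 1 to 2 for the retinoid list and 2 to 5 for fatty acid carriers. Medians ran from -0.21 to -0.13 for other nuclear receptors, 0.0052 to 0.086 for PPAR targets and -0.43 to -0.28 for LXR targets. Over all 16593 tested genes, higher calls ran from 3716 to 4083 and lower calls from 3582 to 3865. The median over all tested genes ran from -0.016 to 0.0044.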
